A study of Mus musculus with 6 samples.

Results

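The genes described here are 9 components of the tight junction, chosen by name among the 20325 genes listed for each library: the claudins Cldn3, Cldn4, Cldn6, Cldn7 and Cldn12, the MARVEL-domain proteins Ocln (occludin) and Marveld2 (tricellulin), and the scaffold proteins Tjp1 and Tjp3 (ZO-1 and ZO-3). All 9 were listed in every library and all 9 were among the 13460 genes that passed the filter on low counts. Both groups came from neural stem cells (NSCs), which renew themselves and give rise to neurons and glia, of mice of postnatal day 4 on a mixed 129/Black 6 background. All cells were homozygous at ColA1 for Stemcca, a doxycycline-inducible cassette of Oct4, Sox2, c-Myc and Klf4, and heterozygous at Rosa26 for the rtTA transactivator that doxycycline activates; all had received doxycycline until day 7. The cultures were fixed, permeabilised and sorted on 2 proteins: Nanog+E-cadherin+ cells (N+E+, n = 3) stained for the pluripotency factor Nanog and the epithelial adhesion protein E-cadherin, and Nanog+E-cadherin- cells (N+E-, n = 3) for Nanog alone. No uninduced or unsorted sample was analysed here. Whether the replicates are separate cultures or animals is not in the labels; the p-values below reflect spread among these 6 libraries alone, which may be technical.

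Tight junctions seal the space between epithelial cells near their apical border. Claudins are tetraspan proteins whose strands form the seal and set which ions cross it; occludin and tricellulin join the strands at contacts of 2 and of 3 cells, and ZO proteins tie all of them to actin. Neural stem cells lose occludin-based junctions during normal brain development while keeping adherens junctions, and the gain of epithelial junctions is part of the mesenchymal-to-epithelial transition that accompanies reprogramming of fibroblasts.

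Cdh1, which encodes the sorted E-cadherin, stood at 104, 142 and 139 CPM in N+E+ replicates 1 to 3, against 16.5, 20.2 and 15.4 CPM in N+E- replicates 1 to 3, where CPM relates a gene's count to its library's total, scaled by the trimmed mean of M-values (TMM). Its log2 fold change was 2.89 ± 0.24 (SE) in edgeR, with an adjusted p of 0.0608 with group only and 0.00177 with the replicate number as a block. Library totals ran from 12345327 to 20934553 expected counts in N+E+ and from 8851110 to 39630916 in N+E- libraries. All 12 neural stem cell markers listed, among them Nes, Sox2 and Gfap, passed the filter, with summed levels of 2104 to 5276 CPM in N+E+ and 2517 to 4729 CPM in N+E- libraries. With group only, 3 of the 12, Gfap among them, were fitted higher in N+E+ and 9 lower, and 0 passed. The RNA-binding protein gene Msi1 had 80.1 ± 7.97 CPM in N+E+ and 122 ± 5.98 CPM in N+E- cells (SD, n = 3 each). It was the only 1 of the 12 without overlap in CPM on the lower side, where 3.25% of all tested genes had none, and it overlapped in TPM. N+E- replicates 2 and 3 stood apart from the other libraries: 1528 genes of olfactory, vomeronasal and taste receptors and similar families summed to 2165 and 1384 CPM there, against 45.9 CPM in N+E- replicate 1 and 64.5 to 188 CPM in N+E+ libraries. Libraries of equal replicate number also deviated together from their group means, so ratios are given within each such pair as well. In bulk RNA, fewer cells that express a gene and less of its RNA per cell cannot be told apart.

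No tight junction gene passed the test across all genes. Cldn4, Cldn6 and Cldn7, claudins of simple epithelia and, for Cldn6, of early embryonic epithelium, were nevertheless higher in every N+E+ library than in every N+E- library, by 2.46-fold, 3.25-fold and 10.6-fold in the fit. Cldn3, the most abundant of the 9, and the ubiquitous Cldn12 overlapped between the groups, as did occludin, tricellulin and both ZO genes. The 9 genes were chosen with earlier results of these data known, so their counts beside those of all genes are a description. On the lower side 0 of the 9 had non-overlapping libraries, where 3.25% of all tested genes did. On the higher side 3 of the 9 did, where 3.74% of all tested genes did. Cldn7 exceeded the filter level of 0.633 CPM (before TMM scaling) in N+E+ libraries alone and so could only enter the test by being higher there; among the other 8 genes the count was 2. With group as the only term, edgeR's quasi-likelihood test, Benjamini-Hochberg adjusted over all genes, called 0 of the 9 (adjusted p = 0.9999 for each) and with the replicate number as a block it also called 0 (smallest adjusted p 0.376, for Cldn4). The backgrounds of these 2 fits were 0% and 0.305% of tested genes. Unadjusted p-values under 0.05 were found for 2 of the 9 with group only, Cldn6 and Cldn7, against 2.67% of all genes, and for 4 with the block (Cldn4, Cldn6 and Cldn7 higher, Cldn3 lower), against 10.7%; without Cldn7 these counts were 1 and 3 of 8. The median log2 fold change over the 9, of N+E+ over N+E- like all others here, was 0.04 with group only, and that over all tested genes was -0.01.

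**Figure D1:**
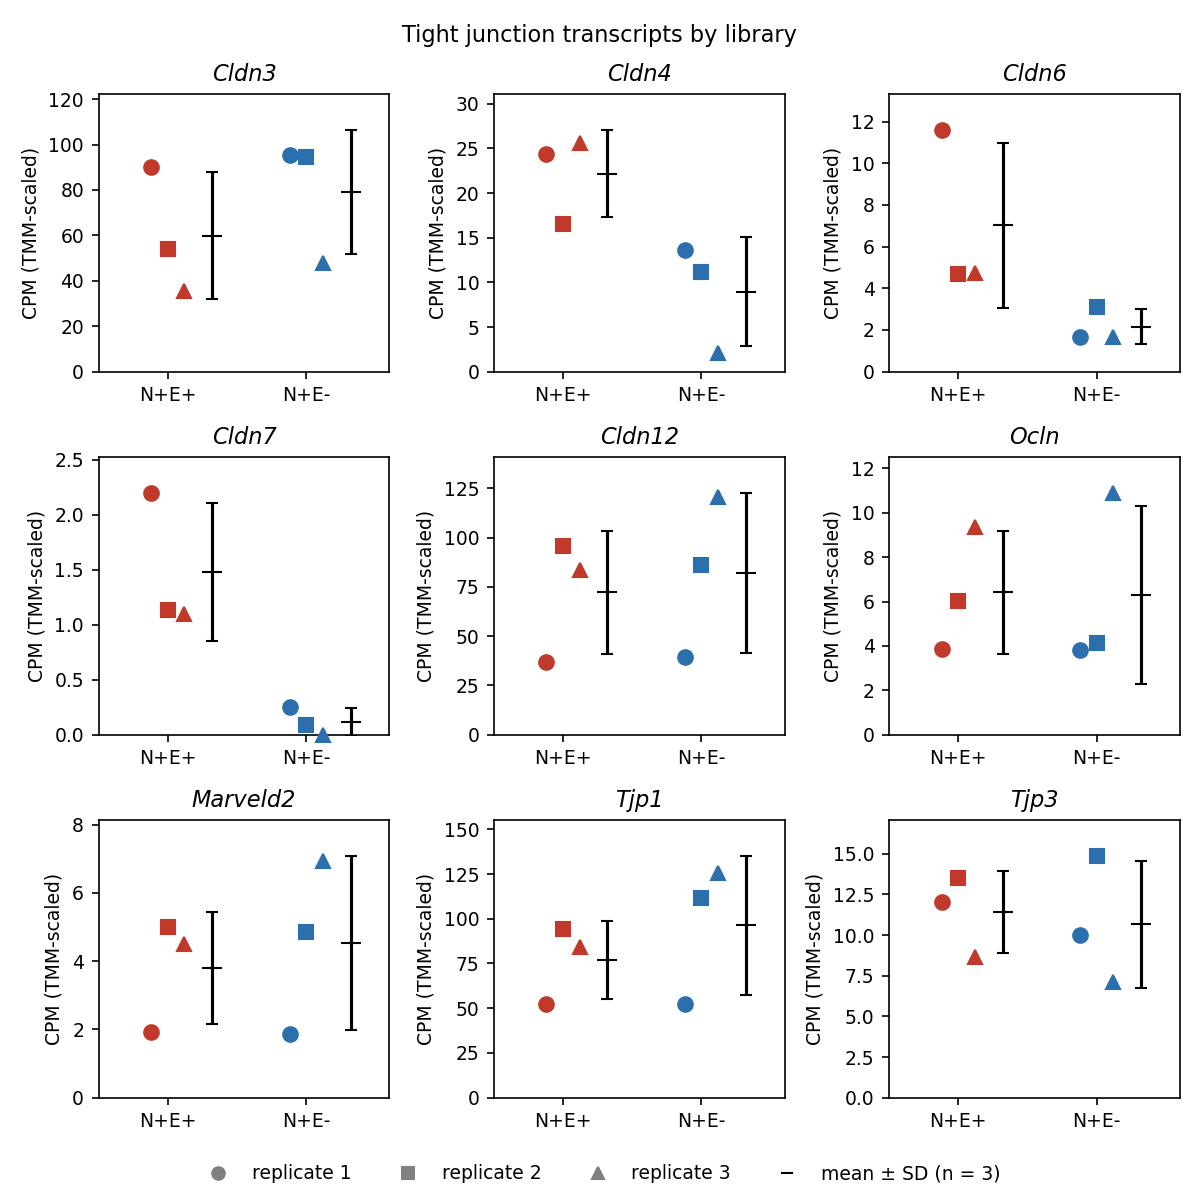
TMM-scaled CPM (linear axis, from 0, scaled per gene) of the 9 tight junction genes in the 3 N+E+ libraries (red, left) and the 3 N+E- libraries (blue, right); symbols mark the replicate number and black bars the mean ± SD. Cldn4, Cldn6 and Cldn7 separate the groups without overlap, while Cldn12, Marveld2 and Tjp1 are lowest in both replicate 1 libraries.

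The proximal promoters of the claudins that separated the groups, and of Cldn3 beside Cldn4, are shown because the 6-letter sequence CACCTG, which reads as CAGGTG on the other strand and is an E-box form that the E-cadherin repressors of the Zeb and Snail families are known to bind, lies in each. The sequences are RefSeq windows on GRCm38.p6, not the mm9 build that the submitters' processing notes name, and run 5′ to 3′ from 250 bases before to 50 bases after a transcript start. Capitals mark every match, on either strand. Cldn4 lies at chr5:134946885-134947184 on the minus strand, Cldn6 at chr17:23679115-23679414 on the plus strand, Cldn7 at chr11:69965171-69965470 on the plus strand (its other start, upstream, holds no match) and Cldn3 at chr5:134985964-134986263 on the plus strand.
Cldn4: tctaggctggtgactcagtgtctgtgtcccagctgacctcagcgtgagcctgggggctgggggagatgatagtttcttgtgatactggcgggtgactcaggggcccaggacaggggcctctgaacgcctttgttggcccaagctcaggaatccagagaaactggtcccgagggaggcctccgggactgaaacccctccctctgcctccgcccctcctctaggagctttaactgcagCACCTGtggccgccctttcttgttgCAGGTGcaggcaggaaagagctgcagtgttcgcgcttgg
Cldn6: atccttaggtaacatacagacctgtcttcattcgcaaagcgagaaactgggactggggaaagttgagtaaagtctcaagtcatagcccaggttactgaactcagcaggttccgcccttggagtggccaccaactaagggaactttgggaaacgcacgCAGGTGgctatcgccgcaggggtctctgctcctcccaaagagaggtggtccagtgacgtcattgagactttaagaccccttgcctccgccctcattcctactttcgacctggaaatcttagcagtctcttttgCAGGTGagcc
Cldn7: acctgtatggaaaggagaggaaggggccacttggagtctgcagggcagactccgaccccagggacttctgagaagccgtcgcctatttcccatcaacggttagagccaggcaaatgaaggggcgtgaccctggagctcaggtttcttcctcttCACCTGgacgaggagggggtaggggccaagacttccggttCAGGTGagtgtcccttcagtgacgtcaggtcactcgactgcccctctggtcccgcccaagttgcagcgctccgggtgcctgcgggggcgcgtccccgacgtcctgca
Cldn3: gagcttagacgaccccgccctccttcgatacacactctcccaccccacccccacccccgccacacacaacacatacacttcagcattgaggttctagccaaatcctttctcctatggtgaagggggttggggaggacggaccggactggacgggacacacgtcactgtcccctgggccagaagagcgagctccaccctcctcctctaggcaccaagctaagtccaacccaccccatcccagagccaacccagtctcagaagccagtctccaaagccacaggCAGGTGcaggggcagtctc
In Cldn4 the matches begin 14 bases before the start and at base 12 after it, in Cldn6 93 bases before and at base 41 after, in Cldn7 97 and 57 bases before, and in Cldn3 at base 32 after. Counting both strands, 7 of the 9 tight junction genes had a match in at least 1 of their windows, against 22.6% of 27025 genes. A gene with more windows has more chances of a match. Of single windows, 10 of the 15 of these genes held one, against 20.2% of 32851 over all genes, and windows of 1 gene can overlap. Cldn12 and Tjp1 had none in these windows. The 7 genes include Ocln, Marveld2, Tjp3 and Cldn3, which did not separate the groups, and binding was not measured.

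Cldn4, a barrier-forming claudin of simple epithelia, had 24.4, 16.6 and 25.6 CPM in N+E+ replicates 1 to 3, against 13.6, 11.2 and 2.10 CPM in N+E- replicates 1 to 3. All N+E+ libraries lay above all N+E- libraries, with N+E- replicate 3 well below the other two. The means were 22.2 ± 4.91 CPM in N+E+ and 8.96 ± 6.07 CPM in N+E- cells (SD, n = 3 each), and the log2 fold change was 1.30 ± 0.63 (SE). Within pairs numbered 1 to 3 the ratio was 1.79, 1.48 and 12.2, and the last rests on 20 counts in N+E- replicate 3. Without that library the log2 fold change was 0.84 ± 0.31 (SE, group only), and without both N+E- replicates 2 and 3 it was 0.70 ± 0.40 (SE); in that fit N+E- replicate 1 stands alone, is assumed to vary like the N+E+ libraries, and gives no spread of its own.

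Cldn6, a claudin of embryonic epithelium and of pluripotent cells, had 11.6, 4.69 and 4.75 CPM in N+E+ replicates 1 to 3, against 1.69, 3.11 and 1.68 CPM in N+E- replicates 1 to 3. N+E+ replicate 1 was the highest library, while the groups came closest in the pair numbered 2. The means were 7.01 ± 3.98 CPM in N+E+ and 2.16 ± 0.826 CPM in N+E- cells (SD, n = 3 each), and the log2 fold change was 1.70 ± 0.64 (SE). The ratios within pairs were 6.88, 1.51 and 2.83, and the 95% exact interval of the ratio in the pair numbered 2 (0.983 to 2.34, counting error only) included equality. Without N+E+ replicate 1 the log2 fold change was 1.13 ± 0.81 (SE), and without both N+E- replicates 2 and 3, with N+E- replicate 1 alone in its group, it was 2.05 ± 0.85 (SE).

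Cldn7, which in epithelia also lies along the lateral membrane with Epcam, was scarce, with 40, 15 and 22 counts in N+E+ replicates 1 to 3, against 9, 1 and 0 counts in N+E- replicates 1 to 3. In CPM these were 2.20, 1.13 and 1.10 in N+E+ replicates, against 0.253, 0.0865 and 0 in N+E- replicates. The groups did not overlap, and the count of 0 allows up to 0.315 CPM in that library (3 counts). The log2 fold change was 3.40 ± 1.18 (SE). Within pairs the ratio was 8.70 (95% exact interval 4.15 to 20.4) for number 1 and 13.1 (2.02 to 552) for number 2, and for number 3, with 0 counts in N+E-, the exact interval's lower limit was 2.61. Without N+E- replicate 1 the log2 fold change was 4.77 ± 1.49 (SE), without both N+E- replicates 2 and 3, with N+E- replicate 1 alone in its group, it was 2.52 ± 1.04 (SE), and on log2(TPM + 1) it was 1.39.

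**Figure D2:**
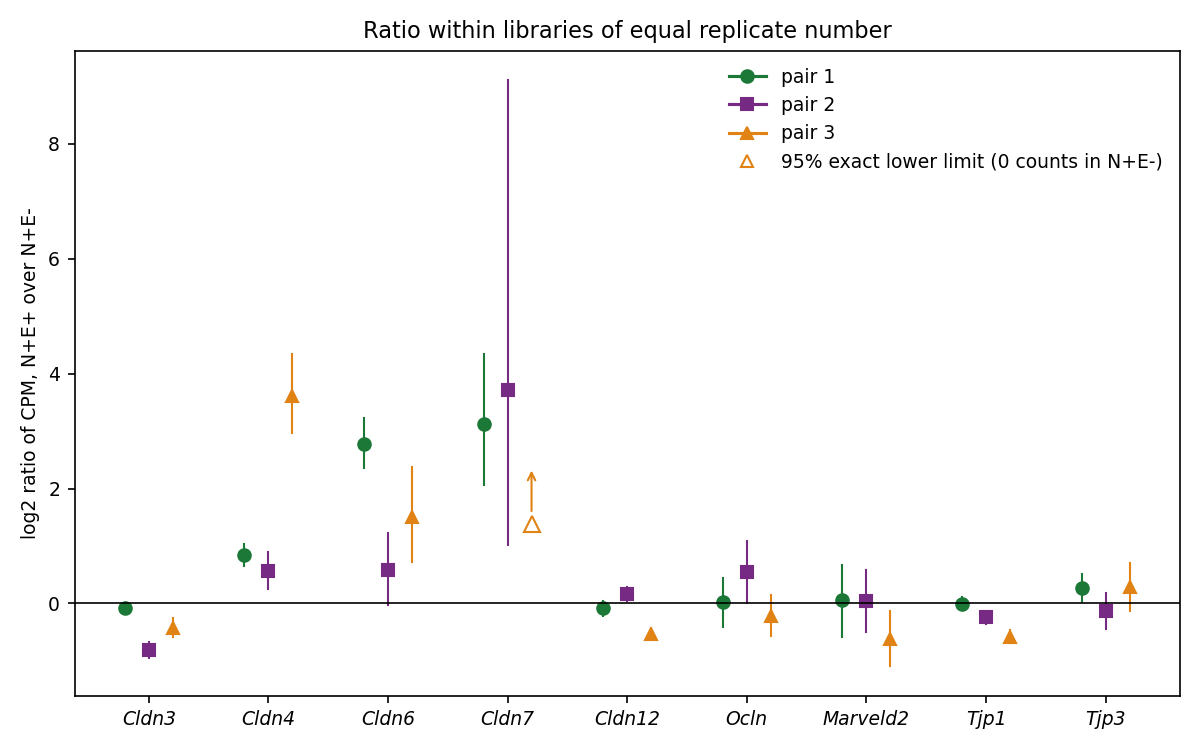
Log2 ratio of TMM-scaled CPM, N+E+ over N+E-, within libraries of equal replicate number, for each tight junction gene; lines are 95% exact intervals for counting error and the open triangle is the lower limit of such an interval. Cldn4, Cldn6 and Cldn7 lie above 0 in all 3 pairs (0.84, 0.57 and 3.61 for Cldn4), and Cldn3 and Tjp1 below 0 in all 3.

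Cldn3 is a barrier-forming claudin whose gene adjoins Cldn4 in the order of protein-coding genes on chromosome 5 in RefSeq. Cldn3 had 90.3, 53.8 and 35.7 CPM in N+E+ replicates 1 to 3, against 95.4, 94.6 and 47.8 CPM in N+E- replicates 1 to 3. The groups overlapped, and within each pair N+E+ was the lower one, with ratios of 0.947, 0.569 and 0.747. The log2 fold change was -0.40 ± 0.41 (SE) with group only and -0.44 ± 0.19 (SE) with the block. Of the 9 genes, 3 were higher within all 3 pairs (2 of the 8 besides Cldn7), against 19.0% of all tested genes, and 2, Cldn3 and Tjp1, were lower within all 3, against 17.1%.

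Cldn12, a claudin without the terminal motif by which others bind ZO proteins, had 37.1, 95.9 and 83.5 CPM in N+E+ replicates 1 to 3, against 39.4, 86.0 and 120.6 CPM in N+E- replicates 1 to 3. Both replicate 1 libraries were low and the other 4 were high, whichever the sort. The log2 fold change was -0.18 ± 0.48 (SE) with group only. It was 0.14 without N+E+ replicate 1, 0.21 without N+E- replicate 3, and 0.87 without both N+E- replicates 2 and 3, which leaves N+E- replicate 1 alone in its group.

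Levels can be compared between genes in the deposited TPM values, which are scaled by transcript length. Cldn3 was first in both groups, at 81.8 ± 21.9 TPM in N+E+ and 119.8 ± 39.2 TPM in N+E- cells (SD, n = 3 each), and its libraries did not overlap those of Cldn12, the next gene, in either group. In N+E+ cells the order went on with Cldn12 (36.7 TPM), Cldn4 (21.8), Tjp1 (20.8), Cldn6 (7.75), Tjp3 (6.76), Ocln (3.77), Marveld2 (2.54) and Cldn7 (2.03 TPM), and each of these overlapped its neighbour in the order. In N+E- cells it went on with Cldn12 (45.5 TPM), Tjp1 (28.5), Cldn4 (8.84), Tjp3 (6.78), Ocln (4.05), Marveld2 (3.78), Cldn6 (2.87) and Cldn7 (0.160 TPM), where Cldn7 alone lay below its neighbour without overlap. The 5 claudins together made 139, 176 and 136 TPM in N+E+ replicates 1 to 3, against 135, 230 and 166 TPM in N+E- replicates 1 to 3, so their summed level overlapped between the groups. Of that sum Cldn4, Cldn6 and Cldn7, put together after their values were seen, made up 21.8%, 16.1% and 26.6% in N+E+ libraries, against 9.25%, 7.80% and 3.13% in N+E- libraries.

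**Figure D3:**
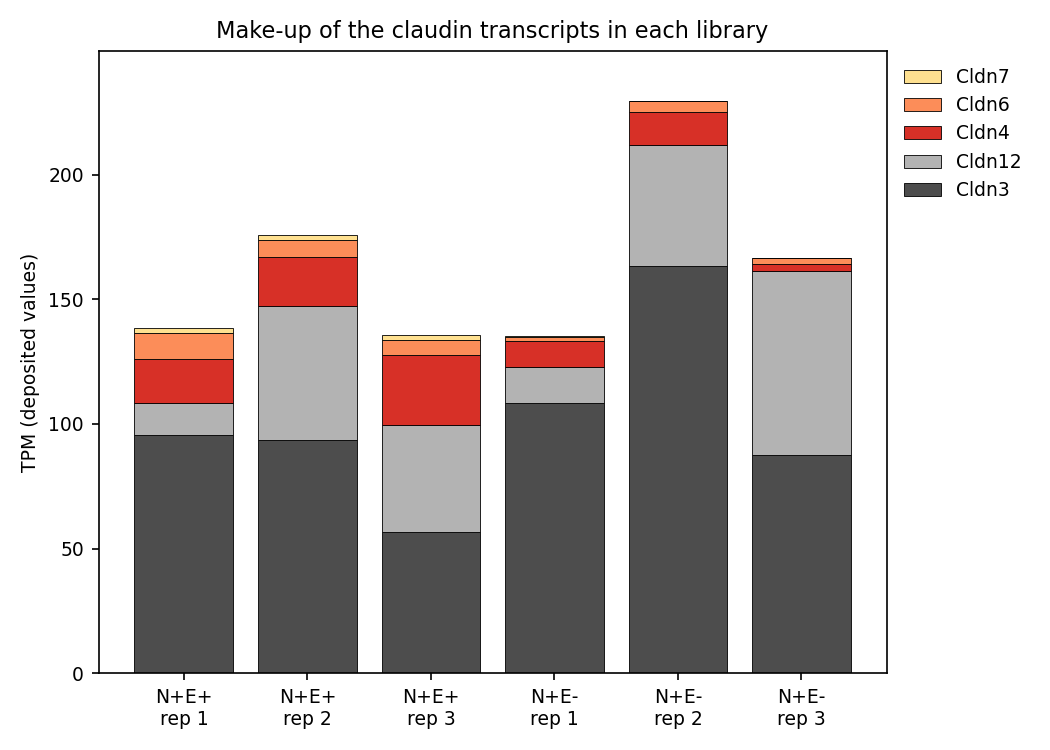
Deposited TPM of the 5 claudins stacked for each library, N+E+ left and N+E- right. The summed heights overlap between the groups (136 to 176 TPM against 135 to 230 TPM), and the Cldn4, Cldn6 and Cldn7 segments together are larger in each N+E+ library.

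Ocln and Marveld2, the MARVEL proteins of bicellular and tricellular contacts and neighbouring protein-coding genes on chromosome 13 in RefSeq, were present at low levels in both groups. Ocln had 3.85, 6.05 and 9.35 CPM in N+E+ replicates 1 to 3, against 3.79, 4.15 and 10.9 CPM in N+E- replicates 1 to 3, and the libraries numbered 3 were the highest of both groups. Its log2 fold change was 0.04 ± 0.62 (SE), with pair ratios of 1.01, 1.46 and 0.858. Marveld2 had 1.93, 4.99 and 4.50 CPM in N+E+ replicates 1 to 3, against 1.85, 4.84 and 6.92 CPM in N+E- replicates 1 to 3, a log2 fold change of -0.25 ± 0.71 (SE). As for Cldn12, both replicate 1 libraries were the lowest. Neither direction is settled: the log2 fold change of Ocln was -0.31 without N+E+ replicate 3, and that of Marveld2 was 0.20 without N+E- replicate 3, 0.08 without N+E+ replicate 1 and 1.03 without both N+E- replicates 2 and 3.

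Tjp1, the scaffold ZO-1 that adherens junctions of neural progenitors also use, had 52.2, 94.1 and 84.2 CPM in N+E+ replicates 1 to 3, against 52.4, 111 and 125 CPM in N+E- replicates 1 to 3. Replicate 1 was low in both groups and the pair differed by less than its counting error (ratio 0.996), while N+E+ was lower in the other pairs, with ratios of 0.845 and 0.671. The log2 fold change was -0.33 ± 0.38 (SE), and 0.55 without both N+E- replicates 2 and 3. Tjp3, the ZO protein largely restricted to epithelia, had 12.05, 13.5 and 8.65 CPM in N+E+ replicates 1 to 3, against 9.98, 14.9 and 7.13 CPM in N+E- replicates 1 to 3. Its groups overlapped, with a log2 fold change of 0.10 ± 0.41 (SE) that was -0.12 without N+E- replicate 3.

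**Figure D4:**
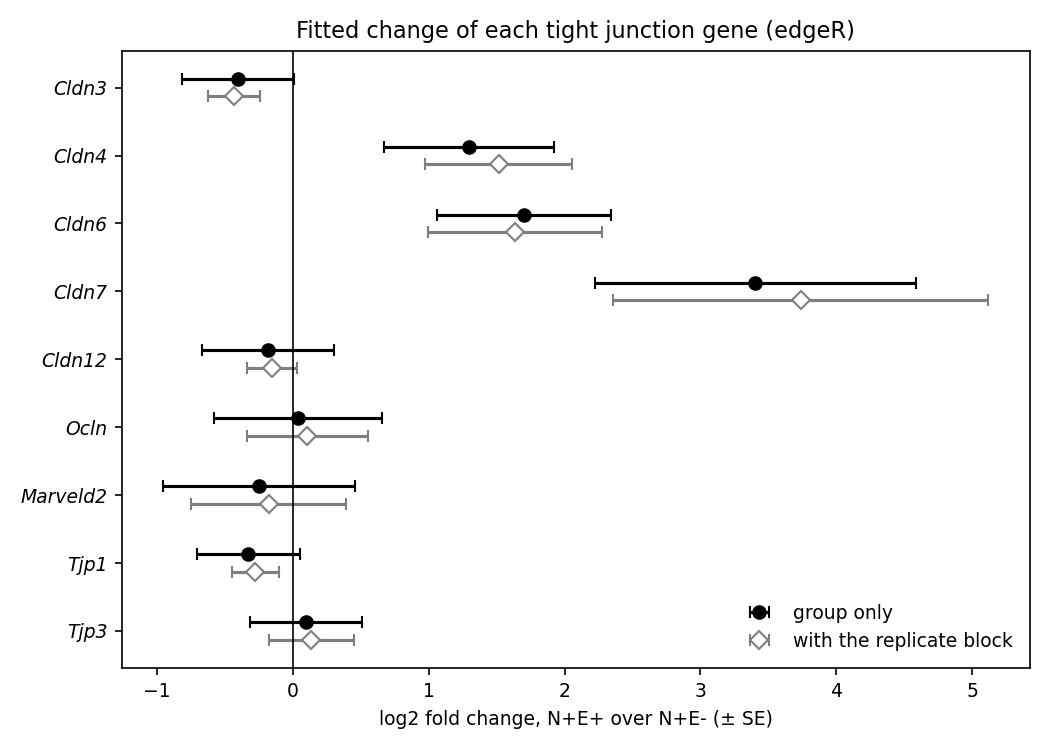
Fitted log2 fold change (N+E+ over N+E-) ± SE of each tight junction gene in edgeR with group only (filled circles) and with the replicate block (open diamonds). Cldn4, Cldn6 and Cldn7 lie at 1.30, 1.70 and 3.40 with group only, the other 6 between -0.40 and 0.10, and none passed an adjusted p of 0.05 in either fit.

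Correlations over the 6 libraries are given as a description. Log2 CPM of Cldn12, Marveld2 and Tjp1 correlated at Pearson's r of 0.967 to 0.996, and these genes lie on different chromosomes. Cldn4, Cldn6 and Cldn7 correlated at 0.695 to 0.878. These 3 were put together because each separated the groups in the same libraries, which by itself yields positive correlations. Cldn3 ran against Ocln (r = -0.927) and correlated at -0.07 to 0.14 with Cldn4, Cldn6 and Cldn7, while Tjp3 correlated at -0.22 to -0.12 with Cldn12, Marveld2 and Tjp1. The points share library depth and replicate number. Beside the levels of Cldn12, Marveld2 and Tjp1, 8 fibroblast markers summed to 366, 3008 and 817 CPM in N+E+ replicates 1 to 3. In N+E- replicates 1 to 3 they summed to 459, 1433 and 1672 CPM. The 12 neural stem markers were likewise lowest in both replicate 1 libraries. With group only, 2 of the 8 fibroblast markers were fitted higher in N+E+ and 6 lower. The log2 median of these 8 was -0.59 there and -0.88 with the block, and 0 passed in either fit. Within all 3 pairs 0 of the 8 were higher and 4 lower, against 19.0% and 17.1% of all tested genes. The part of either marker list in the levels of Cldn12, Marveld2 and Tjp1 was not tested. Over the same 6 libraries and 10438 candidate genes, the genes most like each one were Flrt1 and Mrpl9 for Cldn3, D1Bwg0212e and Acbd4 for Cldn4, Mapkap1 and Dnmt3b for Cldn6, and Cdc25b and Prr11 for Cldn7. They were Sspn and Lama4 for Cldn12, Ppard and Csnk1g1 for Ocln, Sspn and Plagl1 for Marveld2, Hivep2 and Pld1 for Tjp1, and Mapk9 and Bud13 for Tjp3. Pearson's r for these ran from 0.972 (Dnmt3b, Cldn6) to 0.998 (Sspn, Cldn12). With 10438 candidates and only 6 libraries, a search for the highest r yields values near 1 by itself. Shared regulation cannot be read from these names.

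Of the other epithelial genes, 10 were tested out of 11 listed, and 9 were fitted higher in N+E+ with a median log2 fold change of 0.62, and 3 had non-overlapping libraries, the simple-epithelium keratins Krt8, Krt18 and Krt19, where 3.74% of all tested genes did on the higher side; in TPM Krt18 overlapped. In both fits 0 of the 10 passed. Krt8 had 61.7 ± 41.8 CPM in N+E+ and 21.7 ± 8.32 CPM in N+E- cells, and Krt19 had 14.8 ± 4.23 CPM in N+E+ and 6.83 ± 2.41 CPM in N+E- cells (SD, n = 3 each). St14 (matriptase), a protease that acts on epithelial surfaces, had 64.8 ± 13.7 CPM in N+E+ and 45.7 ± 8.71 CPM in N+E- cells. Dsp, the only 1 fitted lower and named after its values were seen, had 113 ± 76.4 CPM in N+E+ and 170 ± 142 CPM in N+E- cells, with overlap. It was lower within all 3 pairs. Of the 10 tested, 5 were higher and 1 lower within all 3 pairs, against 19.0% and 17.1% of all tested genes. Epcam, the partner of Cldn7 and named after its values were seen, averaged 37.5 CPM in N+E+ and 35.3 CPM in N+E- cells. The summed level of the 11 genes overlapped, at 421 to 710 CPM in N+E+ and 305 to 703 CPM in N+E- libraries, and its part in the claudin values was not tested.

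Most remaining claudins were at low levels. Of 22 further genes listed by name, 20 were in the files and 5 passed the filter, with 3 fitted higher, a median log2 fold change of 0.18 and 0 called in either fit. Cldn11, the claudin of myelin and of Sertoli cell junctions, was the claudin of highest level among them at 40.8 ± 21.6 CPM in N+E+ and 21.2 ± 15.3 CPM in N+E- cells (SD, n = 3 each). It was among the 2 of the 5 that were higher within all 3 pairs, against 19.0% of all tested genes, though the groups overlapped. In the blocked fit its adjusted p was 0.263. The oligodendrocyte markers Mog, Mag and Opalin were below the filter, and the 10 such markers summed to 111 to 203 CPM in N+E+ and 103 to 260 CPM in N+E- libraries. Cldn2, a claudin that forms pores for cations, stood at 4.14 ± 3.46 CPM in N+E+ and 5.09 ± 6.35 CPM in N+E- cells, and the claudin-domain gene Cldnd1 at 45.6 ± 9.46 CPM in N+E+ and 48.2 ± 8.12 CPM in N+E- cells. The 15 below the filter reached at most 7.25 CPM in any N+E+ library and 4.40 CPM in any N+E- library. They include Cldn5, the endothelial claudin, at no more than 0.302 CPM in any library. The 10 endothelial markers, of which Emcn was near 0, summed to 60.2 to 104 CPM in N+E+ and 37.8 to 66.8 CPM in N+E- libraries. Of these 7 were tested, with 4 fitted higher in N+E+ and 3, Pecam1, Cdh5 and Vwf, fitted lower, and 0 were called. Eng, highest of them with Tek, had 26.2 ± 4.69 CPM in N+E+ and 13.8 ± 0.586 CPM in N+E- cells. It was the only 1 tested without overlap on the higher side, where 3.74% of all tested genes had none. What part these markers have in the claudin values was not tested.

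No other tight junction component passed in either fit. Of 10 further membrane proteins 9 were tested, 7 were fitted higher and 0 were called, with a median log2 fold change of 0.24. Ildr1, a protein of tricellular contacts, stood at 20.6 ± 4.95 CPM in N+E+ and 13.6 ± 1.59 CPM in N+E- cells, its relative Lsr at 62.7 ± 20.6 CPM in N+E+ and 53.2 ± 19.4 CPM in N+E- cells, and the adhesion molecule F11r (JAM-A) at 34.0 ± 11.8 CPM in N+E+ and 24.5 ± 6.95 CPM in N+E- cells (SD, n = 3 each). These 3 were named for the smallest p in their list. All 3 were among the 4 of the 9 that were higher within all 3 pairs, against 19.0% of all tested genes, and none passed. Of 15 plaque proteins, all tested, 10 were fitted higher and 0 were called, with a median of 0.12. Inadl (PATJ) stood at 32.4 ± 6.09 CPM in N+E+ and 41.0 ± 8.02 CPM in N+E- cells, Tjap1 at 101.5 ± 10.2 CPM in N+E+ and 86.2 ± 10.3 CPM in N+E- cells, and the angiomotin Amot at 12.2 ± 6.01 CPM in N+E+ and 7.70 ± 3.84 CPM in N+E- cells. In CPM the groups overlapped for each of the 15 and each of the 9, while in TPM Ildr1 was higher and Inadl lower in N+E+ without overlap.

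Among 16 transcription and splicing regulators of epithelial junction genes, 14 were tested, 4 were fitted higher and 10 lower, and 0 were called in either fit; the median log2 fold change was -0.28. The libraries did not overlap for 2 that were higher in N+E+, Grhl2 and the splicing factor Esrp1, and for 1 that was lower, Ovol1, against 3.74% of all tested genes on the higher side and 3.25% on the lower. Ovol1 was scarce, and its highest N+E+ library (1.485 CPM) lay only just below its lowest N+E- library (1.490 CPM). Grhl2 and Esrp1 were over the filter level in 3 N+E+ and 0 N+E- libraries, so they could be tested only by being higher in N+E+. Zeb2, a repressor of Cdh1 and of several junction genes, stood at 21.3 ± 7.98 CPM in N+E+ and 33.3 ± 5.14 CPM in N+E- cells (SD, n = 3 each) and was lower within all 3 pairs, with a log2 fold change of -0.65 ± 0.33 (SE) and overlapping groups. Twist1 stood at 20.7 ± 2.88 CPM in N+E+ and 14.0 ± 8.43 CPM in N+E- cells and was higher within all 3 pairs. The grainyhead factor Grhl3 stood at 15.9 ± 8.01 CPM in N+E+ and 24.2 ± 20.1 CPM in N+E- cells and was lower within all 3. Of the 14 tested, 3 were higher and 3 lower within all 3 pairs, against 19.0% and 17.1% of all tested genes. Grhl2, which in mouse epithelia activates Cdh1, Cldn3 and Cldn4, was named after its values were seen. It was scarce, at 2.15 to 3.85 CPM in N+E+ libraries and 0 to 0.703 CPM in N+E- libraries, with an unadjusted p of 0.0462 in edgeR with group only that did not pass over all genes.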

How the data were processed

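RNA-seq of 6 sorted libraries (3 N+E+, 3 N+E-) was used, with groups and replicate numbers from the sample titles. Per the labels' protocols, cells were fixed, stained, sorted and decrosslinked before RNA isolation and libraries came from a TruSeq RNA kit. Per the submitters' processing notes, Bowtie and RSEM 1.2.4 were used with build mm9; the sources used here give neither settings nor strand handling, so a gene and an overlapping antisense gene cannot be told apart. Per the file headers, the authors deposited for each gene an expected count (reads shared between genes are divided, so related claudins may exchange a few), which was rounded, and a TPM value; FPKM was not used.

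All genes were fitted with edgeR 4.0.16 (R 4.3.3): TMM, filterByExpr (minimum count 10, minimum total 15), quasi-likelihood test, group as the only term, Benjamini-Hochberg adjustment over 13460 genes, threshold 0.05. CPM uses library totals times TMM factors. Pair ratios use rounded counts with exact 95% conditional intervals. Intervals and floors cover counting error only. No member was below the filter, so the exact permutation test planned for that case was not needed. Alternatives were DESeq2 1.42.0, limma 3.58.1, other scalings, log2(TPM + 1) and log2(TPM + 0.1), no filter and left-out libraries. The fits were tested on simulated data.

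Same-numbered libraries' deviations from group means correlated at 0.73, 0.40 and 0.45, all above 0.1, so the numbers were taken to pair the libraries. The labels do not state this. Differently numbered libraries correlated at -0.59 to 0.11. N+E+ replicate 3 with N+E- replicate 2 (0.101) and N+E+ replicate 2 with N+E- replicate 3 (0.111) also lay just above 0.1. The 9 genes and the lists were chosen with earlier results of these data known. Besides the 9 and the gate gene Cdh1, genes named are those of each list passing in either fit, up to 3 per list with the smallest p (5 CPM or more in the higher group), and the 2 most correlated genes of each member. Nes, Sox2, Gfap, Mog, Mag, Opalin, Krt18, Epcam, Dsp, Msi1, Eng, Tek, Emcn, Pecam1, Cdh5, Vwf, Cldn5, Amotl2, Esrp1, Ovol1 and Grhl2 were added afterwards. The rule's other picks from the marker lists are given as sums. Nanog, also in the rule, had a log2 fold change of 0.12 ± 0.25 (SE).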

Additional observations from a re-analysis of the deposited data

How the results depend on the processing

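With group only, edgeR called 0 genes (359 with an unadjusted p under 0.05), also with DESeq2 size factors, library totals or any 1 library left out, and limma called 0 by voom and on log2 TPM. With no filter it called 1, and DESeq2's Wald test called 21 but gave 7834 genes no adjusted p, among them 6 of the 9 (Cldn4, Cldn6, Cldn7, Ocln, Marveld2 and Tjp3). With the replicate block edgeR called 41 (35 with library totals, an alternative chosen after seeing the data), DESeq2 304 and limma-voom 264. The block without both libraries numbered 1, 2 or 3 called 149, 140 and 449. Of the tight junction genes with an adjusted p, 0 passed in these fits, except 1, Cldn4, in the block without those numbered 2 (adjusted p = 0.00224; its other alternatives gave 0.0653 to 0.99998). Of the other listed junction genes and regulators 1, Cldn11, passed with DESeq2's block and in the block without number 1, and 1, Amotl2, was lower in the block without number 3.

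Cldn3 stayed below 0, and Cldn4, Cldn6 and Cldn7 above 0, in all 21 alternatives. With 1 library left out Cldn4 ranged from 0.84 to 1.74, Cldn6 from 1.13 to 2.06, Cldn7 from 2.97 to 4.77, Cldn12 from -0.51 to 0.21, Ocln from -0.31 to 0.70, Marveld2 from -0.62 to 0.20 and Tjp3 from -0.12 to 0.41. Without both N+E- replicates 2 and 3 the signs of Cldn12 (0.87), Marveld2 (1.03) and Tjp1 (0.55) turned. Signs also turned for Cldn12 (0.044) and Marveld2 (0.056) in the block without number 3, Ocln in the block without number 2 (-0.10) and on log2(TPM + 1) (-0.00589), and Marveld2 in voom (0.24). The cause was not tested. Depth limits Cldn7 most, with 10 counts in all N+E- libraries.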

Other observations

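The ratio of Cldn4 to its neighbour Cldn3 can be read within each library and does not depend on scaling between libraries. In TPM it was 0.186, 0.211 and 0.493 in N+E+ replicates 1 to 3, against 0.0982, 0.0811 and 0.0302 in N+E- replicates 1 to 3, and the groups did not overlap. The ratio was chosen after the values were seen and was not tested.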
